A study of Mus musculus with 14 samples.

Results

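The genes of cholesterol and fatty acid synthesis were examined in small intestinal organoids lacking Rnaseh2b, Atg16l1 or both. The set holds 34 of the 18781 genes in the expression table. It was chosen by function, not by expression, though with earlier results of these data known. It comprises 18 enzymes that carry acetyl-CoA to cholesterol, 10 enzymes of fatty acid synthesis, elongation and desaturation, and 6 genes of sterol sensing and transport. All 34 passed the filter on low values, which kept 12802 genes.

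Organoids are cultures grown from intestinal crypts, and those compared here had received no treatment. WT organoids (n = 4) carried ATG16L1flox/flox and RNaseH2Bflox/flox alleles without Cre recombinase. Rnaseh2bΔIEC organoids (n = 2, RNaseH2Bflox/flox), Atg16l1ΔIEC organoids (n = 4, ATG16L1flox/flox) and Atg16l1/Rnaseh2bΔIEC organoids (n = 4, both floxed genes) carried VillinCre+/-, whose promoter is active in intestinal epithelial cells. The single knockout organoids were labelled with floxed alleles of their own target gene only, so they differed from WT also in the other floxed locus. Ages were not given in the labels. Nothing in the labels separates animals from cultures, so p-values measure only the spread between these libraries, which may be technical.

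Cells make cholesterol from acetyl-CoA through the mevalonate pathway, squalene and a series of sterol intermediates. The transcription factor SREBP2, encoded by Srebf2, drives the genes of this route, whereas SREBP1, encoded by Srebf1, drives mainly those of fatty acid synthesis. When sterols are low, SCAP carries SREBP from the endoplasmic reticulum to the Golgi for cleavage, and when sterols are high, INSIG1 holds SCAP back. Enterocytes also take up cholesterol from the gut lumen through NPC1L1.

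Values are on the log2 scale as deposited, with an unnamed transformation that pulls low values together, and the depth per library is unknown. A difference of log2 values is called a log2 difference here. Differences were tested with limma over all genes tested, with a threshold of 0.05 on the Benjamini-Hochberg adjusted p. The library names place WT in lane 1, both single knockouts in lane 2, and Atg16l1/Rnaseh2bΔIEC libraries 1 and 2 in lane 2 and 3 and 4 in lane 1. For the single knockouts against WT, lane and genotype therefore cannot be told apart without the Atg16l1/Rnaseh2bΔIEC libraries. In WT, Atg16l1ΔIEC and Atg16l1/Rnaseh2bΔIEC organoids, libraries 1 and 2 formed a pair that deviated from the mean in the same way. So did libraries 3 and 4 (r from 0.406 to 0.864 over 6 pairs, across genes, which are no replicates). The adjusted p-values of the fit without pairs are therefore too small where a pair counts as 2 libraries. The 2 Rnaseh2bΔIEC libraries were treated as a pair by their numbers only, since 2 libraries cannot show whether they deviate together. When the pair was a random block in limma, only 5 of the 57 calls among the 34 genes kept an adjusted p under 0.05, namely Hsd17b7 in each single knockout against WT, Npc1l1 in Atg16l1/Rnaseh2bΔIEC against Atg16l1ΔIEC organoids and the interaction terms of Hsd17b7 and Dhcr7. The other calls among the 34 genes missed the threshold with that block. Fits within 1 lane used no such block, although the Atg16l1/Rnaseh2bΔIEC libraries in each lane are 1 pair of 1 sex by Xist. Their adjusted p-values are therefore too small as well, since 1 pair there stands for that genotype. Each targeted gene was lower than in WT in the organoids lacking it, but less so in Atg16l1/Rnaseh2bΔIEC than in the single knockout organoids. The mean of Atg16l1 was 9.46 in WT (SD 0.05), 6.92 in Atg16l1ΔIEC (SD 0.29) and 8.39 in Atg16l1/Rnaseh2bΔIEC organoids (SD 0.19), and that of Rnaseh2b was 8.54 in WT (SD 0.13), 7.18 in Rnaseh2bΔIEC (SD 0.04) and 7.81 in Atg16l1/Rnaseh2bΔIEC organoids (SD 0.10).

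SREBP proteins bind sterol regulatory elements in promoters, commonly beside a CCAAT box bound by NF-Y. The RefSeq promoter table of GRCm38.p6 held 27 of the 34 genes, with 250 bases before and 50 after each start. It held no entry for Fads1, Fdft1, Fdps, Scd1, Scd2, Sqle and Stard4. On either strand, the letters CCAAT occurred in 22 of the 27 genes (81.5%), against 41.1% of the 27025 genes in that table and 43.1% of the tested genes with an entry. They occurred in 14 of 15 sterol enzymes (93.3%), 4 of 7 fatty acid enzymes (57.1%) and 4 of 5 genes of sensing and transport (80.0%). The sterol regulatory element letters TCACNCCAC occurred in 1 of 27 genes (3.7%), Hmgcs1, against 1.44% of all genes in the table. In Hmgcs1 these letters began 137 bases before the start and did not overlap a CCAAT box. These are matches of letters in a window, not binding sites.

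Sterol enzymes called higher in Atg16l1ΔIEC organoids, in the fit without pairs or lane, include Idi1 and Dhcr7, with 2 CCAAT boxes each. Idi1 and Dhcr7 are not shown. The following stretches belong to other such enzymes, of which Hsd17b7 was also called higher in Rnaseh2bΔIEC organoids. Each is written 5′ to 3′ on the strand of its gene, upstream of the annotated gene, with CCAAT or its complement ATTGG and the sterol regulatory element letters in capitals. The farthest bases of the Hsd17b7 stretch also lie in the gene 3110045C21Rik.
Hmgcs1, chr13:119690101-119690350 (plus strand): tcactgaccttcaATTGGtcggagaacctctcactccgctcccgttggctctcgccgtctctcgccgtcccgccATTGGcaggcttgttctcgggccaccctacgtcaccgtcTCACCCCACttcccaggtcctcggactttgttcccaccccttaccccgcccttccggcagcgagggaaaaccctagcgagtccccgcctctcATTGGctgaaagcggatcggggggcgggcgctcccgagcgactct
Hsd17b7, chr1:169969243-169969455 (minus strand): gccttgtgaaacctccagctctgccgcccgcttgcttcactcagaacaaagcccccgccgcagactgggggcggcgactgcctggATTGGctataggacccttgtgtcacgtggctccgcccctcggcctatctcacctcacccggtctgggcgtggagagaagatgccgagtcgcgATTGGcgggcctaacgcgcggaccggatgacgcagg
Mvd, chr8:122443423-122443522 (minus strand): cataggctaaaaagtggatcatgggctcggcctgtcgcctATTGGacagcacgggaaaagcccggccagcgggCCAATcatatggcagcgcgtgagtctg
Lss, chr10:76531505-76531564 (plus strand): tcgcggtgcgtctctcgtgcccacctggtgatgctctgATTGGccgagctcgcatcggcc
Sc5d, chr9:42264301-42264400 (minus strand): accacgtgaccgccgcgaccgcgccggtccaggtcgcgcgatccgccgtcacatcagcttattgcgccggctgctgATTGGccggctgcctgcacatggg
The Hmgcs1 stretch holds 3 CCAAT boxes and the sterol regulatory element letters, the Hsd17b7 and Mvd stretches 2 CCAAT boxes each, and the Lss and Sc5d stretches 1 each.

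Loss of Atg16l1 alone went with 10 higher and 0 lower genes among the 34, relative to WT. This is 29.4% of the genes in either direction against 19.1% of all genes tested, of which 8.73% were higher and 10.4% lower. The sterol enzymes held 8 of the 10, and all 18 of them had a log2 difference above 0 (median 0.16, from 0.03 to 0.36). Of the fatty acid enzymes 5 lay above and 5 below 0, with a median of 0.03, and the median over all genes tested was 0.00. Libraries of both genotypes did not overlap for 16 of the 34 genes (47.1%), against 24.6% of all genes tested. When the library pair was a random block, 1 of the 34 genes remained past the threshold, Hsd17b7, against 3.0% of all genes tested. With lane as a covariate, 0 genes were higher and 2 were lower in limma, Acaca (-0.31, adjusted p = 0.0146) and Elovl5 (-0.16, adjusted p = 0.0438), 5.88% of the set against 12.4% of all genes tested.

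Rnaseh2bΔIEC organoids had 6 higher and 3 lower genes of the 34, relative to WT. Their share of 26.5% was close to the 26.7% of all genes tested, of which 14.4% were higher and 12.3% lower. The sterol enzymes were 4 of the 6 higher genes (median log2 difference 0.10), and 3 of the 4 were enzymes of the steps after lanosterol. Among the fatty acid enzymes 2 were higher and 2 lower (median -0.07). Libraries did not overlap for 19 of the 34 genes (55.9%), against 55.5% of all genes tested. With total scaling in place of the deposited scaling, 4 genes were higher and 4 lower. Again 1 gene, Hsd17b7, remained with the library pair as a random block, against 5.69% of all genes tested. A lane covariate left 1 gene higher, Hsd17b7, and 3 lower, Acaca, Fasn and Stard4, which is 11.8% of the set against 11.7% of all genes tested. Only 2 libraries stand for this genotype, and without library 1 or library 2 of them the count was 1 or 3.

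In Atg16l1/Rnaseh2bΔIEC against WT organoids, 2 genes were higher and 5 lower. These 7 genes were 20.6% of the set, against 16.1% of all genes tested, of which 8.1% were higher and 8.01% lower. Of the sterol enzymes 1 was higher and 0 were lower in limma (median 0.03, with 5 of 18 below 0), and of the fatty acid enzymes 3 were lower (median -0.02). Libraries did not overlap for 8 of the 34 genes (23.5%), against 22.3% of all genes tested. With total scaling 4 genes were higher and 4 lower, and the split was the same with upper quartile scaling. Without WT library 1, or without WT library 2, the count was 4. Within lane 1, with all WT and 2 Atg16l1/Rnaseh2bΔIEC libraries, 1 gene was higher and 3 were lower (11.8% of the set against 10.2% of all genes tested), a choice made after seeing the data. Over all libraries, 0 genes were higher and 4 lower in limma with lane as a covariate, 11.8% against 11.1%. In limma with the library pair as a random block, 0 of the 34 genes passed, with 6 at an unadjusted p under 0.05, and 0.664% of all genes tested passed. The comparisons with WT share the WT libraries, so their results are not independent of each other.

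**Figure D1:**
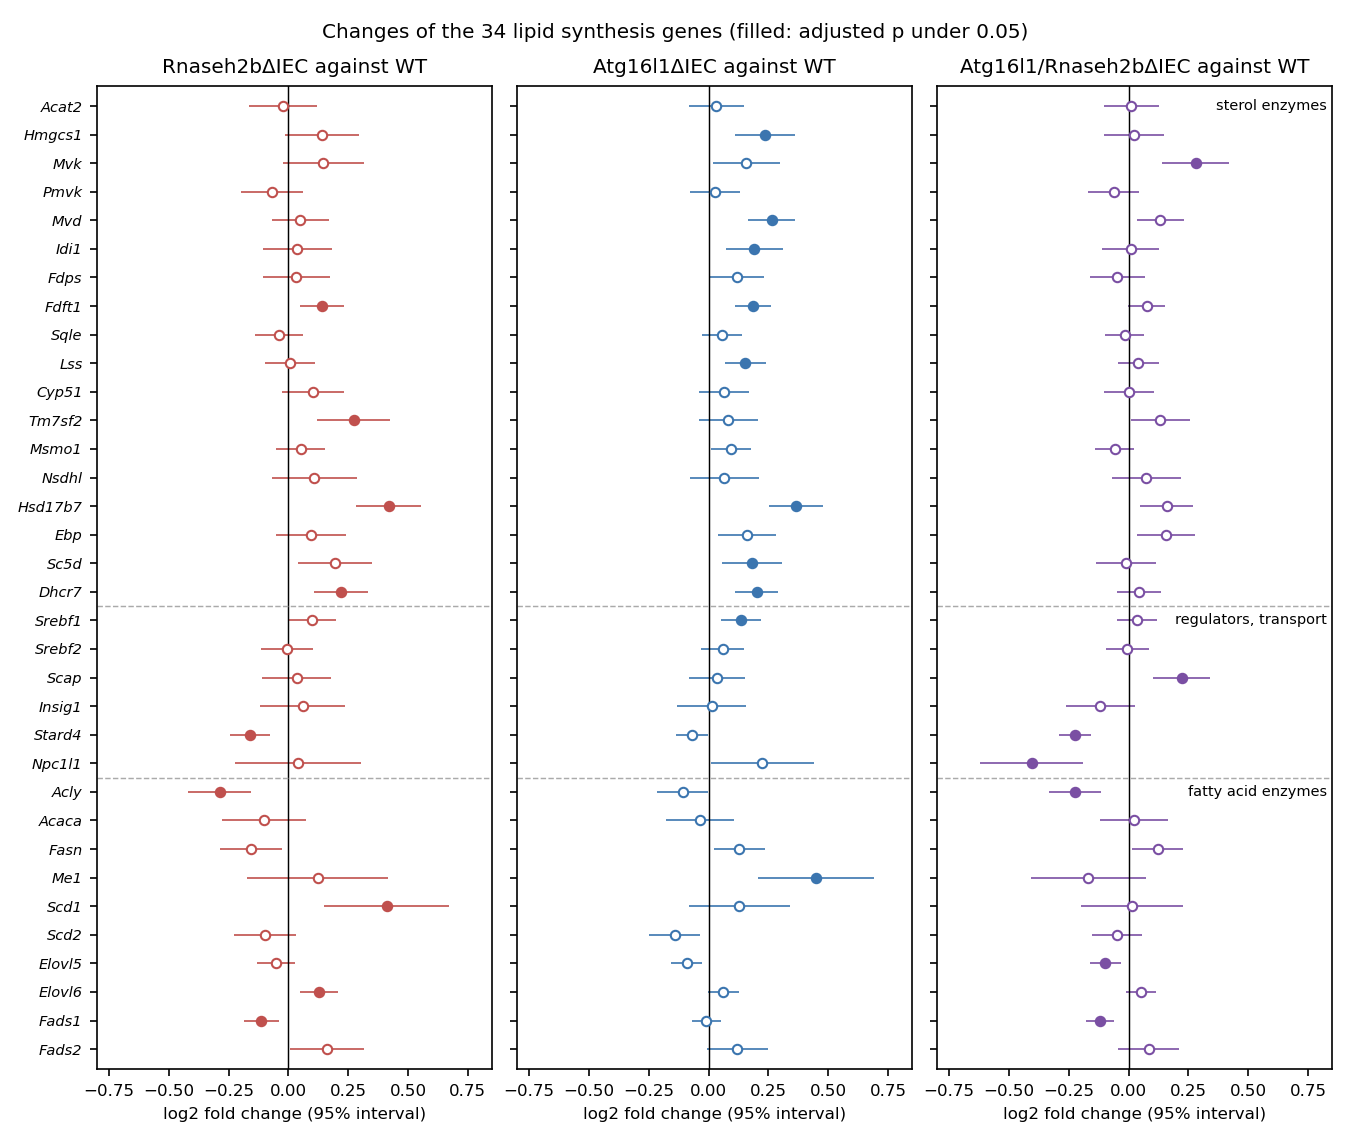
Log2 difference from WT (x axis, point, with its 95% interval from limma as the line) of each of the 34 genes (y axis) in Rnaseh2bΔIEC, Atg16l1ΔIEC and Atg16l1/Rnaseh2bΔIEC organoids, with filled points past the adjusted threshold. All 18 sterol enzymes lie right of 0 in Atg16l1ΔIEC organoids, and Hsd17b7 has the highest value of the 34 in Rnaseh2bΔIEC organoids, at 0.42.

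The mevalonate enzymes build isoprene units from acetyl-CoA. Hmgcs1 (ENSMUSG00000093930, chromosome 13 from 119690351 to 119708260, GRCm38), which makes HMG-CoA, was at 14.07, 14.06, 14.20 and 14.14 in WT, 14.25 and 14.27 in Rnaseh2bΔIEC, 14.31, 14.34, 14.41 and 14.37 in Atg16l1ΔIEC and 14.16, 14.33, 14.05 and 14.02 in Atg16l1/Rnaseh2bΔIEC organoids. All Atg16l1ΔIEC libraries lay above all WT libraries, whereas Atg16l1/Rnaseh2bΔIEC libraries 1 and 2 lay apart from 3 and 4, which were the lowest of all. The log2 difference from WT was 0.24 (SE 0.06, limma adjusted p = 0.0134) in Atg16l1ΔIEC organoids, 0.14 (adjusted p = 0.166) in Rnaseh2bΔIEC and 0.02 (adjusted p = 0.833) in Atg16l1/Rnaseh2bΔIEC organoids. With the library pair as a random block the adjusted p in Atg16l1ΔIEC organoids was 0.136, and with lane as a covariate the difference was 0.03.

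Mvd, the decarboxylase that gives isopentenyl diphosphate, was at 11.27, 11.30, 11.25 and 11.30 in WT, 11.36 and 11.30 in Rnaseh2bΔIEC, 11.60, 11.58, 11.43 and 11.57 in Atg16l1ΔIEC and 11.38, 11.54, 11.37 and 11.36 in Atg16l1/Rnaseh2bΔIEC organoids. WT libraries spanned a narrow range and every Atg16l1ΔIEC library exceeded it. Its log2 difference from WT was 0.26 (SE 0.05, limma adjusted p = 0.00185) in Atg16l1ΔIEC organoids, and the adjusted p was 0.0887 with the library pair as a random block. Mvk, mevalonate kinase, was at 9.98, 9.98, 9.997 and 10.07 in WT, 10.20 and 10.10 in Rnaseh2bΔIEC, 10.28, 10.17, 10.06 and 10.15 in Atg16l1ΔIEC and 10.43, 10.39, 10.18 and 10.15 in Atg16l1/Rnaseh2bΔIEC organoids. It was higher in Atg16l1/Rnaseh2bΔIEC than in WT organoids, by 0.28 (SE 0.06, limma adjusted p = 0.0133), with no overlap, and most so in libraries 1 and 2. Within lane 1 alone the difference was 0.16 (adjusted p = 0.0495), and over all libraries with the library pair as a random block the adjusted p was 0.13.

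Idi1, the isomerase of isopentenyl diphosphate, had a mean of 7.71 ± 0.10 (SD, n = 4) in Atg16l1ΔIEC and 7.52 ± 0.02 (SD, n = 4) in WT organoids, a log2 difference of 0.19 (limma adjusted p = 0.0294). Its call was lost when any of 7 libraries was left out and with the library pair as a random block (adjusted p = 0.345). Acat2, Pmvk and Fdps, the thiolase, a kinase and the farnesyl diphosphate synthase of the route, passed the threshold in no comparison with WT, with log2 differences from -0.07 (Pmvk in Rnaseh2bΔIEC) to 0.12 (Fdps in Atg16l1ΔIEC).

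Squalene is made by Fdft1, oxidised by Sqle and closed into lanosterol by Lss. Fdft1 was at 11.51, 11.55, 11.59 and 11.62 in WT, 11.70 and 11.71 in Rnaseh2bΔIEC, 11.77, 11.83, 11.72 and 11.71 in Atg16l1ΔIEC and 11.62, 11.72, 11.63 and 11.60 in Atg16l1/Rnaseh2bΔIEC organoids. It was higher than in WT in both single knockouts, by 0.14 (SE 0.04, limma adjusted p = 0.0297) in Rnaseh2bΔIEC and by 0.19 (SE 0.04, limma adjusted p = 0.0033) in Atg16l1ΔIEC organoids. Lss was at 12.92, 12.97, 12.99 and 12.97 in WT, 12.98 and 12.96 in Rnaseh2bΔIEC, 13.17, 13.14, 13.04 and 13.10 in Atg16l1ΔIEC and 12.89, 13.08, 13.03 and 13.005 in Atg16l1/Rnaseh2bΔIEC organoids, and the Atg16l1ΔIEC libraries lay above WT, by 0.15 (SE 0.04, limma adjusted p = 0.0174). When the library pair was a random block, none of these 3 differences passed the threshold (adjusted p = 0.234, 0.0857 and 0.278).

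Sqle, a rate-controlling enzyme of the route, was at 13.01, 13.01, 13.14 and 13.08 in WT, 13.03 and 13.01 in Rnaseh2bΔIEC, 13.15, 13.16, 13.06 and 13.10 in Atg16l1ΔIEC and 13.03, 13.12, 13.01 and 13.01 in Atg16l1/Rnaseh2bΔIEC organoids. Each knockout overlapped with WT, while the Rnaseh2bΔIEC libraries lay below the Atg16l1ΔIEC libraries. Its log2 difference from WT was between -0.04 and 0.06 in all 3 knockouts (lowest limma adjusted p = 0.325). The 95% interval in Atg16l1ΔIEC organoids ran from -0.03 to 0.14.

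Hsd17b7 (ENSMUSG00000026675, chromosome 1 from 169949535 to 169969242, GRCm38), the keto-reductase of sterol demethylation, showed the clearest difference of the late sterol enzymes. It was at 10.70, 10.70, 10.83 and 10.68 in WT, 11.13 and 11.16 in Rnaseh2bΔIEC, 11.04, 11.10, 11.09 and 11.13 in Atg16l1ΔIEC and 10.92, 11.04, 10.77 and 10.81 in Atg16l1/Rnaseh2bΔIEC organoids. Every library of both single knockouts lay above every WT library, whereas Atg16l1/Rnaseh2bΔIEC libraries 1 and 2 lay above the WT libraries and 3 and 4 within their range. The log2 difference from WT was 0.42 (SE 0.06, limma adjusted p = 0.00062; 1.34-fold) in Rnaseh2bΔIEC, 0.36 (SE 0.05, limma adjusted p = 0.000486; 1.29-fold) in Atg16l1ΔIEC and 0.16 (SE 0.05, limma adjusted p = 0.0524) in Atg16l1/Rnaseh2bΔIEC organoids. With the library pair as a random block, the adjusted p was 0.0195 in Rnaseh2bΔIEC and 0.0191 in Atg16l1ΔIEC organoids. With lane as a covariate, the difference was 0.23 (adjusted p = 0.0484) in Rnaseh2bΔIEC and 0.18 (adjusted p = 0.0881) in Atg16l1ΔIEC organoids.

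Dhcr7, the reductase of the last step to cholesterol, was at 12.28, 12.29, 12.18 and 12.22 in WT, 12.46 and 12.47 in Rnaseh2bΔIEC, 12.48, 12.46, 12.44 and 12.39 in Atg16l1ΔIEC and 12.34, 12.38, 12.23 and 12.19 in Atg16l1/Rnaseh2bΔIEC organoids. Both single knockouts lay above all WT libraries, by 0.22 (SE 0.05, limma adjusted p = 0.00819) in Rnaseh2bΔIEC and 0.20 (SE 0.04, limma adjusted p = 0.00614) in Atg16l1ΔIEC organoids. The adjusted p was 0.0667 and 0.0611 with the library pair as a random block, and with lane as a covariate the differences were 0.07 and 0.05. Tm7sf2, a sterol reductase, was at 10.58, 10.56, 10.44 and 10.42 in WT, 10.81 and 10.73 in Rnaseh2bΔIEC, 10.67, 10.57, 10.51 and 10.57 in Atg16l1ΔIEC and 10.62, 10.79, 10.55 and 10.57 in Atg16l1/Rnaseh2bΔIEC organoids. It was higher than WT in Rnaseh2bΔIEC organoids, by 0.27 (SE 0.07, limma adjusted p = 0.0131), and the adjusted p was 0.137 with the library pair as a random block.

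Sc5d, a sterol desaturase, had a mean of 11.81 ± 0.05 (SD, n = 4) in Atg16l1ΔIEC and 11.62 ± 0.11 (SD, n = 4) in WT organoids, a log2 difference of 0.18 (limma adjusted p = 0.042) that lost its call when any of 7 libraries was left out and with the library pair as a random block (adjusted p = 0.254). Cyp51, Msmo1, Nsdhl and Ebp, which demethylate and isomerise sterols, passed the threshold in no comparison with WT. Their log2 differences ran from -0.06 (Msmo1 in Atg16l1/Rnaseh2bΔIEC) to 0.16 (Ebp in Atg16l1ΔIEC).

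**Figure D2:**
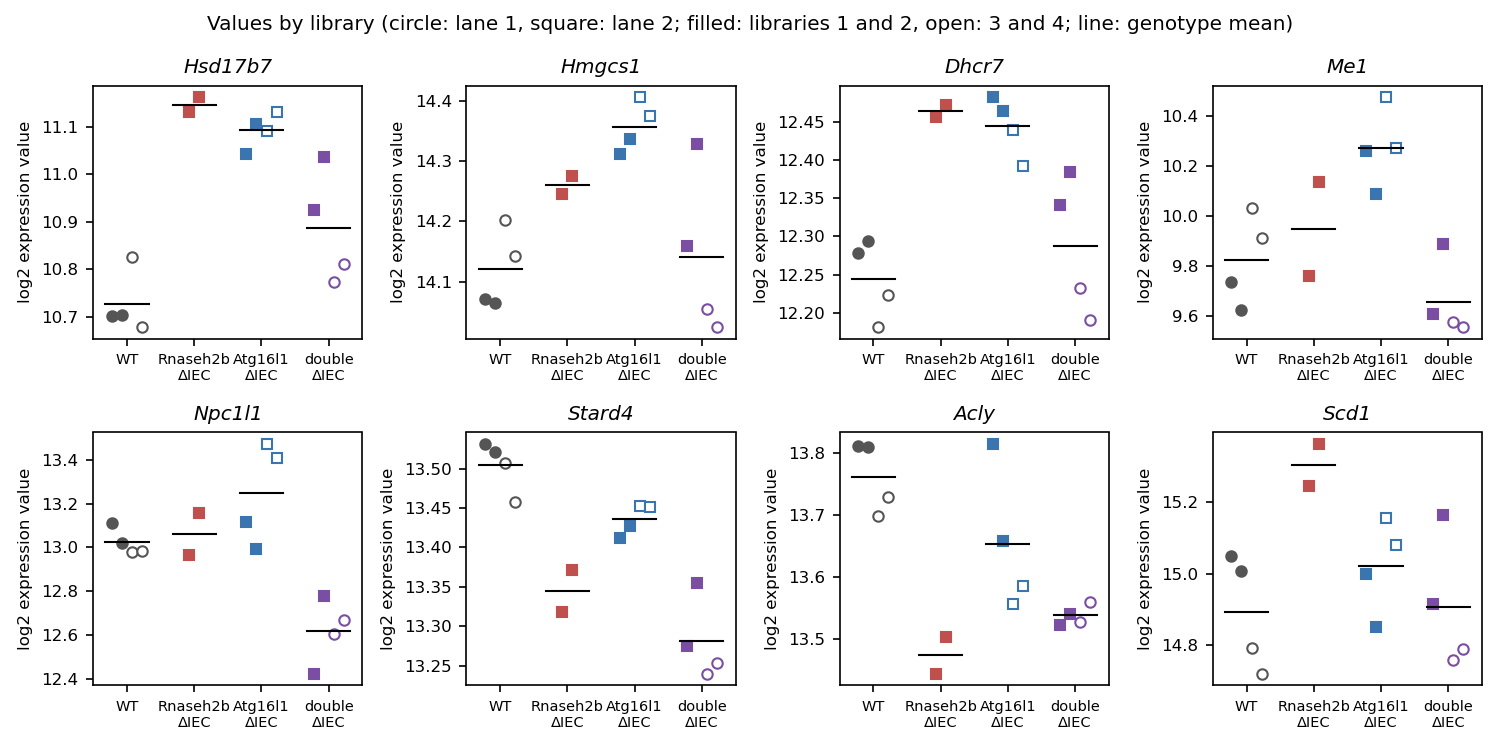
Log2 values (y axis, a separate range in each panel) of 8 genes in each of the 14 libraries by genotype (x axis, with Atg16l1/Rnaseh2bΔIEC written as double ΔIEC); circles are lane 1, squares lane 2, filled symbols libraries 1 and 2, open symbols libraries 3 and 4, and lines the genotype means. Hsd17b7 lies at 11.04 or more in all 6 single knockout libraries and at 10.83 or less in all 4 WT libraries, and Npc1l1 lies at 12.78 or less in all 4 Atg16l1/Rnaseh2bΔIEC libraries.

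Of the 6 genes of sterol sensing and transport, 1 differed from WT in Rnaseh2bΔIEC, 1 in Atg16l1ΔIEC and 3 in Atg16l1/Rnaseh2bΔIEC organoids. The shares of all genes tested were 26.7%, 19.1% and 16.1%, and 0 of the 6 passed in limma in any of the 3 comparisons with the library pair as a random block. Srebf2 was at 13.04, 13.04, 13.16 and 13.19 in WT, 13.12 and 13.08 in Rnaseh2bΔIEC, 13.18, 13.19, 13.13 and 13.16 in Atg16l1ΔIEC and 13.02, 13.09, 13.14 and 13.16 in Atg16l1/Rnaseh2bΔIEC organoids. Each knockout overlapped with WT, and the Rnaseh2bΔIEC libraries lay below the Atg16l1ΔIEC libraries, with log2 differences from WT between -0.01 and 0.06 (lowest limma adjusted p = 0.34). Srebf1 was at 12.55, 12.56, 12.45 and 12.48 in WT, 12.64 and 12.58 in Rnaseh2bΔIEC, 12.67, 12.57, 12.64 and 12.71 in Atg16l1ΔIEC and 12.58, 12.60, 12.49 and 12.52 in Atg16l1/Rnaseh2bΔIEC organoids. It was higher in Atg16l1ΔIEC than in WT organoids, by 0.14 (SE 0.04, limma adjusted p = 0.0264), with no overlap between the libraries, and the adjusted p was 0.242 with the library pair as a random block.

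Scap, the SREBP escort, was at 10.53, 10.59, 10.68 and 10.75 in WT, 10.71 and 10.64 in Rnaseh2bΔIEC, 10.76, 10.75, 10.53 and 10.65 in Atg16l1ΔIEC and 10.91, 10.86, 10.85 and 10.82 in Atg16l1/Rnaseh2bΔIEC organoids. All Atg16l1/Rnaseh2bΔIEC libraries lay above all WT libraries, by 0.22 (SE 0.06, limma adjusted p = 0.0184), and the adjusted p was 0.169 with the library pair as a random block and 0.0879 within lane 1. Insig1 was at 13.26, 13.25, 13.15 and 13.09 in WT, 13.22 and 13.27 in Rnaseh2bΔIEC, 13.09, 13.14, 13.30 and 13.26 in Atg16l1ΔIEC and 12.87, 13.09, 13.15 and 13.16 in Atg16l1/Rnaseh2bΔIEC organoids. It passed the threshold in no comparison with WT, and its log2 difference was -0.12 (95% interval -0.26 to 0.03) in Atg16l1/Rnaseh2bΔIEC organoids.

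Npc1l1 (ENSMUSG00000020447, chromosome 11 from 6211011 to 6230245, GRCm38), the cholesterol importer of the brush border, was at 13.11, 13.02, 12.98 and 12.98 in WT, 12.96 and 13.16 in Rnaseh2bΔIEC, 13.12, 12.99, 13.47 and 13.41 in Atg16l1ΔIEC and 12.42, 12.78, 12.60 and 12.67 in Atg16l1/Rnaseh2bΔIEC organoids. The Atg16l1/Rnaseh2bΔIEC libraries lay below all other libraries, and Atg16l1ΔIEC libraries 3 and 4 above all others. Npc1l1 was lower in Atg16l1/Rnaseh2bΔIEC than in WT organoids, by a log2 difference of -0.40 (SE 0.10, limma adjusted p = 0.018), and lower than in Atg16l1ΔIEC organoids, by -0.63 (SE 0.10, limma adjusted p = 0.0012). The adjusted p with the library pair as a random block was 0.208 against WT and 0.0326 against Atg16l1ΔIEC organoids. Within a lane, with 1 Atg16l1/Rnaseh2bΔIEC pair and no pair block, the differences were -0.39 against WT (lane 1, limma adjusted p = 0.00462) and -0.65 against Atg16l1ΔIEC (lane 2, limma adjusted p = 0.0186).

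Stard4, a carrier of cholesterol between membranes, was at 13.53, 13.52, 13.51 and 13.46 in WT, 13.32 and 13.37 in Rnaseh2bΔIEC, 13.41, 13.43, 13.45 and 13.45 in Atg16l1ΔIEC and 13.28, 13.36, 13.24 and 13.25 in Atg16l1/Rnaseh2bΔIEC organoids. It was lower than WT in Rnaseh2bΔIEC organoids, by -0.16 (SE 0.04, limma adjusted p = 0.00928), and in Atg16l1/Rnaseh2bΔIEC organoids, by -0.22 (SE 0.03, limma adjusted p = 0.00125), with no overlap in either comparison. Its difference in Atg16l1/Rnaseh2bΔIEC organoids was -0.26 within lane 1 (adjusted p = 0.00559), and with the library pair as a random block the adjusted p was 0.143 in Rnaseh2bΔIEC and 0.058 in Atg16l1/Rnaseh2bΔIEC organoids. Stard4 thus went the other way from the sterol enzymes that rose in Rnaseh2bΔIEC organoids.

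Of the 10 fatty acid enzymes, 4 differed from WT in Rnaseh2bΔIEC, 1 in Atg16l1ΔIEC and 3 in Atg16l1/Rnaseh2bΔIEC organoids. Beside them stand the same 26.7%, 19.1% and 16.1% of all genes tested, and 0 of the 10 passed in limma in any of the 3 comparisons once the library pair was a random block. Acly, which splits citrate to supply acetyl-CoA to both routes, was at 13.81, 13.81, 13.70 and 13.73 in WT, 13.44 and 13.50 in Rnaseh2bΔIEC, 13.81, 13.66, 13.56 and 13.59 in Atg16l1ΔIEC and 13.52, 13.54, 13.53 and 13.56 in Atg16l1/Rnaseh2bΔIEC organoids. It was lower than WT in Rnaseh2bΔIEC, by -0.29 (SE 0.06, limma adjusted p = 0.00472), and in Atg16l1/Rnaseh2bΔIEC organoids, by -0.22 (SE 0.05, limma adjusted p = 0.0114), with no overlap in either comparison. The difference in Atg16l1/Rnaseh2bΔIEC organoids was -0.22 within lane 1 (adjusted p = 0.0244), and with the library pair as a random block the adjusted p was 0.0688 in Rnaseh2bΔIEC and 0.154 in Atg16l1/Rnaseh2bΔIEC organoids.

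Me1, the malic enzyme that supplies NADPH, was at 9.74, 9.62, 10.03 and 9.91 in WT, 9.76 and 10.14 in Rnaseh2bΔIEC, 10.26, 10.09, 10.47 and 10.27 in Atg16l1ΔIEC and 9.61, 9.89, 9.57 and 9.55 in Atg16l1/Rnaseh2bΔIEC organoids. The Atg16l1ΔIEC libraries lay above WT, by 0.45 (SE 0.11, limma adjusted p = 0.0138; 1.37-fold), and the Rnaseh2bΔIEC libraries lay far apart from each other. The adjusted p was 0.206 with the library pair as a random block. Scd1, which makes monounsaturated fatty acids, was at 15.05, 15.01, 14.79 and 14.72 in WT, 15.24 and 15.36 in Rnaseh2bΔIEC, 14.999, 14.85, 15.16 and 15.08 in Atg16l1ΔIEC and 14.92, 15.16, 14.76 and 14.79 in Atg16l1/Rnaseh2bΔIEC organoids. It was higher in Rnaseh2bΔIEC than in WT organoids, by 0.41 (SE 0.12, limma adjusted p = 0.024), a call lost with the library pair as a random block (adjusted p = 0.143). In WT, Atg16l1ΔIEC and Atg16l1/Rnaseh2bΔIEC organoids the library pairs of Scd1 lay apart, and both Rnaseh2bΔIEC libraries were treated as 1 pair.

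Elovl6, an elongase, had a mean of 12.13 ± 0.02 (SD, n = 2) in Rnaseh2bΔIEC and 12.004 ± 0.03 (SD, n = 4) in WT organoids, a log2 difference of 0.13 (limma adjusted p = 0.0201; 0.284 with the library pair as a random block). Fads1, a desaturase of polyunsaturated fatty acids, averaged 13.44 in WT (SD 0.04, n = 4), 13.32 in Rnaseh2bΔIEC (SD 0.01, n = 2) and 13.32 in Atg16l1/Rnaseh2bΔIEC organoids (SD 0.04, n = 4). It was lower than WT in both, by -0.11 (limma adjusted p = 0.0261) and -0.12 (limma adjusted p = 0.014), and the random block gave an adjusted p of 0.234 and 0.213. Elovl5, an elongase of polyunsaturated fatty acids, had a mean of 11.36 ± 0.05 (SD, n = 4) in WT and 11.26 ± 0.04 (SD, n = 4) in Atg16l1/Rnaseh2bΔIEC organoids, a difference of -0.10 (limma adjusted p = 0.0444) that lost its call when any of 12 libraries was left out and with the random block (adjusted p = 0.384). Acaca, Fasn, Scd2 and Fads2 passed the threshold in no comparison with WT, with log2 differences from -0.16 (Fasn in Rnaseh2bΔIEC) to 0.16 (Fads2 in Rnaseh2bΔIEC). Acaca, which makes malonyl-CoA, moved from -0.10 to -0.37 (limma adjusted p = 0.00846) and Fasn from -0.16 to -0.30 (limma adjusted p = 0.0225) in Rnaseh2bΔIEC organoids with lane as a covariate. Fasn, the fatty acid synthase, was higher in Atg16l1/Rnaseh2bΔIEC than in Rnaseh2bΔIEC organoids, by 0.28 (SE 0.06, limma adjusted p = 0.00575), and the adjusted p was 0.0643 with the library pair as a random block.

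The comparisons of Atg16l1/Rnaseh2bΔIEC with the single knockouts ask what the other deletion adds. However, the RNA of the shared target was also higher in Atg16l1/Rnaseh2bΔIEC than in each single knockout. That difference enters these comparisons and the interaction term, and its part was not tested. Against Atg16l1ΔIEC organoids, 1 gene was higher and 13 were lower, 41.2% of the set against 25.1% of all genes tested, of which 12.6% were higher and 12.5% lower. The 13 were 9 sterol enzymes (Hmgcs1, Mvd, Idi1, Fdps, Fdft1, Msmo1, Hsd17b7, Sc5d and Dhcr7), Npc1l1 and Stard4, and Me1 and Fads1 of the fatty acid enzymes, and the higher gene was Scap. The differences of the 9 sterol enzymes ran from -0.22 (Hmgcs1) to -0.11 (Fdft1), and Me1 differed by -0.62 (SE 0.11, limma adjusted p = 0.00239). With total scaling 1 gene was higher and 9 were lower, of which 5 were sterol enzymes. In a fit of only these 2 genotypes 1 was higher and 7 were lower, of which 3 were sterol enzymes (23.5% of the set against 16.1% of all genes tested). Libraries did not overlap for 10 of the 34 genes (29.4%), against 23.9% of all genes tested. With lane as a covariate 3 genes were higher and 6 lower, 26.5% of the set against 31.1% of all genes tested. Within lane 2, where all Atg16l1ΔIEC libraries and 2 Atg16l1/Rnaseh2bΔIEC libraries lie, 3 genes were higher and 3 lower. This is 17.6% of the set against 24.4% of all genes tested in that fit, and Npc1l1, Me1 (-0.53, adjusted p = 0.0245) and Fdps (-0.23, adjusted p = 0.0381) were the 3 lower. With the library pair as a random block, Npc1l1 alone passed the threshold, against 3.73% of all genes tested.

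Against Rnaseh2bΔIEC organoids, 1 gene was higher, Fasn, and 5 were lower. They were 17.6% of the set against 25.5% of all genes tested, of which 11.1% were higher and 14.4% lower. The lower genes were Npc1l1 (-0.44), Scd1 (-0.40), Hsd17b7 (-0.26), Sc5d (-0.21) and Dhcr7 (-0.18). Libraries did not overlap for 11 of the 34 genes (32.4%), against 49.9% of all genes tested. With total scaling 2 genes were higher and 3 lower, and with upper quartile scaling 2 higher and 4 lower. With lane as a covariate 4 genes were higher and 3 lower, 20.6% of the set against 27.1% of all genes tested. Within lane 2, where all Rnaseh2bΔIEC and 2 Atg16l1/Rnaseh2bΔIEC libraries lie, 3 genes were higher and 1 lower (11.8% against 21.0%). Without Rnaseh2bΔIEC library 1 the count was 1 and without library 2 it was 0 in limma, and without Atg16l1/Rnaseh2bΔIEC library 3 or 4 it was 3. In limma with the library pair as a random block, 0 of the 34 genes passed, with 5 at an unadjusted p under 0.05, and 5.41% of all genes tested passed.

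The interaction term asks whether deleting Rnaseh2b changed a gene differently in organoids that lacked Atg16l1 than in those that did not. It was below 0 and past the threshold for 11 of the 34 genes and above 0 for 0 in limma. The share of 32.4% was close to the 35.1% of all genes tested, of which 17% were above and 18.1% below 0. The 11 genes were Hmgcs1, Fdft1, Msmo1, Hsd17b7, Sc5d and Dhcr7 of the sterol enzymes, Srebf1 and Npc1l1, and Me1, Scd1 and Elovl6. Over the 18 sterol enzymes the median was -0.19, with 17 below 0, and over the fatty acid enzymes 0.02. The largest in size were Me1 (-0.74, SE 0.18, limma adjusted p = 0.00623), Npc1l1 (-0.67, SE 0.16, limma adjusted p = 0.00592) and Hsd17b7 (-0.62, SE 0.08, limma adjusted p = 0.000166). With total scaling 2 genes were above 0 and 8 below. With the library pair as a random block Hsd17b7 (adjusted p = 0.00606) and Dhcr7 (adjusted p = 0.0129) passed, against 12.1% of all genes tested, and with lane as a covariate the term for Hsd17b7 was -0.34 (adjusted p = 0.0291). With lane as a covariate, 3 genes were above 0 and 1 below, 11.8% of the set against 20.2% of all genes tested.

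The sterol enzymes were also summarised in each library by the median of their log2 differences from the WT mean. It was 0.12 and 0.05 in the Rnaseh2bΔIEC libraries, 0.20, 0.14, 0.08 and 0.14 in the Atg16l1ΔIEC libraries and 0.05, 0.14, -0.01 and -0.02 in the Atg16l1/Rnaseh2bΔIEC libraries. All 8 libraries of lane 2 thus lay between 0.05 and 0.20, and all 6 libraries of lane 1, from WT and Atg16l1/Rnaseh2bΔIEC, between -0.02 and 0.01. The WT libraries lie near 0 by construction, since the values are differences from their own mean. Only Atg16l1/Rnaseh2bΔIEC libraries stand in both lanes, with 1 pair in each. The same median over the fatty acid enzymes ran from -0.08 to 0.08 in lane 2 and from -0.12 to 0.01 in lane 1. The part of lane in the sterol values was not tested apart from the library pairs, since in Atg16l1/Rnaseh2bΔIEC organoids lane, pair and sex by Xist cannot be told apart.

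**Figure D3:**
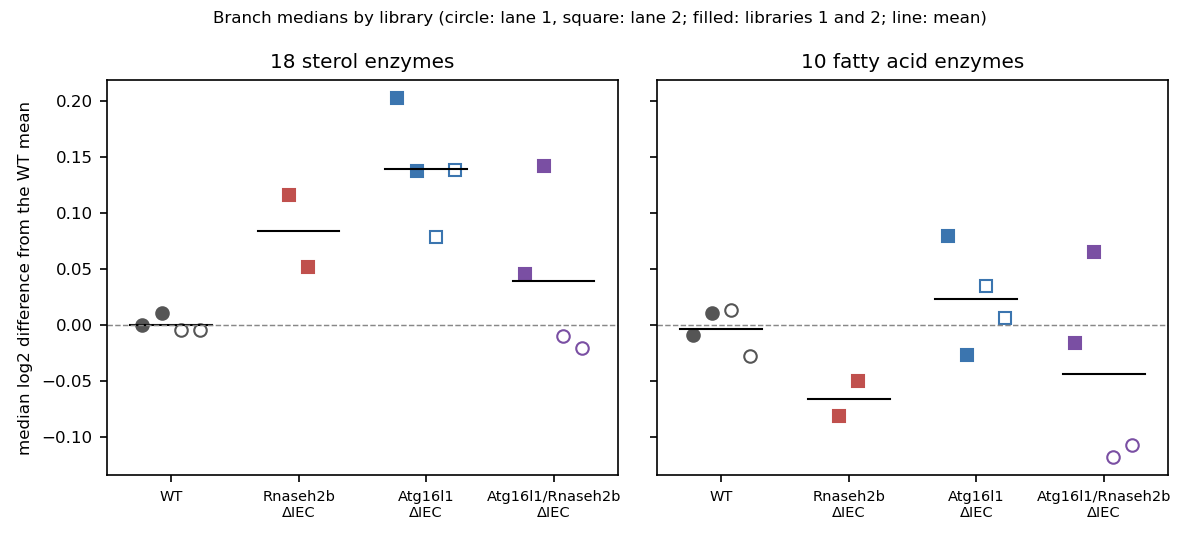
Median log2 difference from the WT mean (y axis) over the 18 sterol enzymes (left) and the 10 fatty acid enzymes (right) in each library by genotype (x axis); circles are lane 1, squares lane 2, filled symbols libraries 1 and 2, open symbols libraries 3 and 4, and lines the genotype means. All 8 squares lie above all 6 circles for the sterol enzymes, and they overlap for the fatty acid enzymes.

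The sterol median minus the fatty acid median was 0.17 in Rnaseh2bΔIEC, 0.13 in Atg16l1ΔIEC and 0.05 in Atg16l1/Rnaseh2bΔIEC organoids against WT. With lane as a covariate it was 0.08, 0.15 and 0.10, so the sterol side stayed above the fatty acid side in each. The sterol medians themselves were then -0.04 in Rnaseh2bΔIEC and 0.04 in Atg16l1ΔIEC organoids. That covariate rests on the 4 Atg16l1/Rnaseh2bΔIEC libraries.

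**Figure D4:**
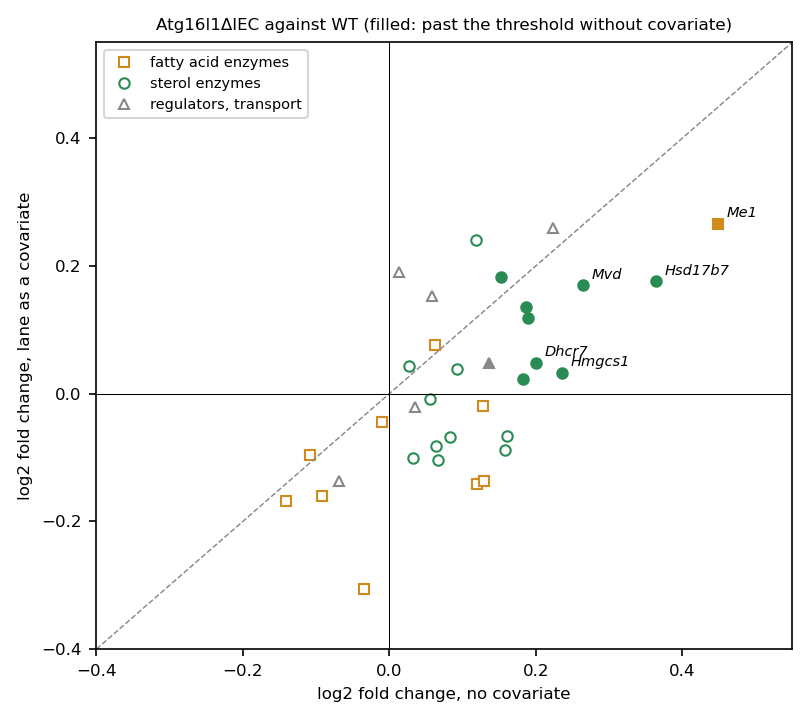
Log2 difference of Atg16l1ΔIEC from WT organoids for each of the 34 genes without a covariate (x axis) and with lane as a covariate (y axis); filled symbols passed the threshold without the covariate, and the dashed line marks equal values. Hsd17b7 moved from 0.36 to 0.18 and Hmgcs1 from 0.24 to 0.03, and 0 of the filled genes passed in limma with the covariate.

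The organoids hold several epithelial cell types, and in bulk RNA fewer cells of a type and less RNA per cell cannot be told apart. All 12 enterocyte markers were tested, and 11 (91.7%) were higher in Rnaseh2bΔIEC than in WT organoids, against 14.4% of all genes tested (median log2 difference 1.13). The calls of markers are from the fit without pairs. The log2 of the summed level of the enterocyte markers was 17.16 to 17.75 in WT, 18.18 to 18.32 in Rnaseh2bΔIEC, 17.23 to 17.95 in Atg16l1ΔIEC and 17.04 to 17.45 in Atg16l1/Rnaseh2bΔIEC organoids. Npc1l1, a gene of enterocytes, differed from WT by 0.04 in Rnaseh2bΔIEC organoids (95% interval -0.22 to 0.30). It differed from WT by 0.22 in Atg16l1ΔIEC and -0.40 in Atg16l1/Rnaseh2bΔIEC organoids, where the enterocyte marker medians were 0.24 and -0.17. In Atg16l1/Rnaseh2bΔIEC organoids it differed by -0.63 from Atg16l1ΔIEC and -0.44 from Rnaseh2bΔIEC organoids, where these medians were -0.45 and -1.07. Of 8 stem cell markers, 7 (87.5%) were lower than WT in Atg16l1ΔIEC organoids, against 10.4% of all genes tested, and 3 (37.5%) in Rnaseh2bΔIEC organoids, against 12.3%. Their summed log2 level was 15.39 to 15.52 in WT, 15.09 to 15.17 in Rnaseh2bΔIEC and 14.78 to 15.07 in Atg16l1ΔIEC organoids. In Atg16l1/Rnaseh2bΔIEC organoids it was 15.3 to 15.58. The summed level of 7 Paneth cell markers was 14.96 to 15.08 in WT and 15.46 to 15.86 in Atg16l1/Rnaseh2bΔIEC organoids. It was 14.72 to 14.97 in Rnaseh2bΔIEC and 14.45 to 15.1 in Atg16l1ΔIEC organoids. That of 7 goblet cell markers was 15.66 to 16.19 in WT, 15.24 to 15.39 in Rnaseh2bΔIEC and 15.19 to 15.49 in Atg16l1ΔIEC organoids. Of 8 stromal or immune markers 3 passed the filter, with a summed log2 level of 8.10 to 8.63 over all libraries, and Cd3e had a mean below 0. The part of cell composition in the lipid gene values was not tested.

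A further list of 36 genes of the same pathways, of which 34 were tested, gave 8 higher and 5 lower genes in Rnaseh2bΔIEC, 6 higher and 3 lower in Atg16l1ΔIEC and 3 higher and 4 lower in Atg16l1/Rnaseh2bΔIEC organoids against WT. These are 38.2%, 26.5% and 20.6% of the genes tested on that list, against 26.7%, 19.1% and 16.1% of all genes tested. With the library pair as a random block 3, 2 and 1 of them passed (8.82%, 5.88% and 2.94%, against 5.69%, 3.0% and 0.664% of all genes tested). In Rnaseh2bΔIEC organoids the largest were the sterol exporters Abca1 (0.87, limma adjusted p = 0.0378) and Abcg5 (0.57, limma adjusted p = 0.0103) and the desaturase family gene Fads3 (0.64, limma adjusted p = 0.000444). Of these, Fads3 passed with the random block (adjusted p = 0.0109), as did Soat1 and Mid1ip1, named after their values were seen, both lower. In Atg16l1ΔIEC organoids they were the cholesterol-esterifying enzymes Soat2 (0.38, limma adjusted p = 0.00678) and Soat1 (-0.32, limma adjusted p = 0.000312) and Pgd (0.33, limma adjusted p = 0.000312) of the pentose phosphate route, which supplies NADPH. Soat1 (adjusted p = 0.015) and Pgd (adjusted p = 0.00858) passed with the random block, and Soat2 did not. In Atg16l1/Rnaseh2bΔIEC organoids they were Pgd (0.30, limma adjusted p = 0.00157), G6pdx (0.23, limma adjusted p = 0.00167) of the same route and Acss2 (-0.20, limma adjusted p = 0.00855), which makes acetyl-CoA from acetate. Of these, Pgd alone passed with the random block (adjusted p = 0.0392).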

How the data were processed

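Stranded mRNA libraries of organoids from 4 WT, 2 Rnaseh2bΔIEC, 4 Atg16l1ΔIEC and 4 Atg16l1/Rnaseh2bΔIEC samples were analysed. The authors left out 2 further Rnaseh2bΔIEC samples for their read counts. They used cutadapt, TopHat2 with GRCm38, HTSeq and DESeq2, with versions not given in the sources used here. The authors deposited log2 values of 18781 genes, whose transformation is not named. Genes low in all libraries have almost no spread (median SD 0.00103 at means from -3 to -2 and 0.151 from 6 to 7), so their fold changes are understated. Whole reads could not be recovered, which leaves the depth unknown and precludes count models. All columns were mapped to samples, with 0 left over.

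The 12802 genes averaging 3.32 or more (10 before the log) entered 1 two-sided limma fit (limma 3.58.1, R 4.3.3, moderated with a trend on the mean) of the 14 libraries by genotype, with Benjamini-Hochberg adjustment. Alternatives were other pseudocounts on back-transformed values, filters, scalings, lane, the replicate number as a block, the library pair as a random block or averaged, fits of fewer groups or 1 lane, and leaving out each library. Sex as a covariate, alone or with lane, and lane 1 alone were chosen after seeing the data. The method was tested on simulated data. Limits on its estimates and false calls were set only for libraries without pair correlation, in the fit without pairs. In these data the correlation of library pairs estimated by limma was 0.6452, so those limits do not cover the fit without pairs here. The genes and lists were chosen with earlier results of these data known.

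All 34 genes are accounted for. Values in every library are given for the 3 genes of each role with the widest range of genotype means, plus Srebf1, Srebf2, Insig1 and Npc1l1. Of the further list, the 3 genes with the largest absolute change past the threshold in each comparison with WT are named. Levels were not compared between genes, since the values are not per length. Symbols were matched for 99.7% of gene identifiers, and coordinates and promoters are from RefSeq, GRCm38.p6.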

Additional observations from a re-analysis of the deposited data

Results flagged for a closer look

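In a check of 102 groups of 4 libraries for a library far from the others, 3 were found, all Atg16l1/Rnaseh2bΔIEC library 2, which was the highest of its group for Mvd (11.54), Sqle (13.12) and Me1 (9.889). Chance marks about 1 group in 20 in such a check.

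For 11 genes the interaction term of limma, which sets Rnaseh2b deletion with Atg16l1 deletion against without it, passed an adjusted p of 0.05, and each term was below 0. Among the sterol enzymes the terms were -0.6247 for Hsd17b7, -0.3882 for Sc5d, -0.3776 for Dhcr7, -0.3549 for Hmgcs1, -0.2522 for Fdft1 and -0.2028 for Msmo1. The others were -0.7409 for Me1, -0.6674 for Npc1l1, -0.5254 for Scd1, -0.199 for Srebf1 and -0.1366 for Elovl6. Of these, Hsd17b7 and Dhcr7 passed with the library pair as a random block, and with lane as a covariate Hsd17b7 passed and Me1 was at -0.47, Npc1l1 at -0.72, Dhcr7 at -0.15 and Hmgcs1 at -0.05.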

How the results depend on the processing

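The counts of genes past the threshold were main results in 6 comparisons. With the library pair as a random block they were 1 (Rnaseh2bΔIEC against WT), 1 (Atg16l1ΔIEC against WT), 0 (Atg16l1/Rnaseh2bΔIEC against WT), 0 (against Rnaseh2bΔIEC), 1 (against Atg16l1ΔIEC) and 2 (interaction), where the fit without pairs gave 9, 10, 7, 6, 14 and 11. Averaging each pair left 7 values, 1 for Rnaseh2bΔIEC, and 0 genes in each comparison in limma, with 4, 7, 5, 3, 5 and 7 at an unadjusted p under 0.05, so that fit is too small to judge them. With lane as a covariate the counts were 4, 2 and 4 against WT, 7 against Rnaseh2bΔIEC, 9 against Atg16l1ΔIEC and 4 for the interaction. These are 11.8%, 5.88%, 11.8%, 20.6%, 26.5% and 11.8% of the set. The shares of all genes tested were 11.7%, 12.4%, 11.1%, 27.1%, 31.1% and 20.2%. With lane and sex, chosen after seeing the data, the counts against WT were 5 in Atg16l1ΔIEC and 4 in Atg16l1/Rnaseh2bΔIEC organoids. These are 14.7% and 11.8% of the set, against 26.6% and 12.1% of all genes tested. Within lane 1 the count was 4 in Atg16l1/Rnaseh2bΔIEC organoids against WT (11.8% against 10.2% of all genes tested). Within lane 2 it was 4 against Rnaseh2bΔIEC (11.8% against 21.0%) and 6 against Atg16l1ΔIEC (17.6% against 24.4%). With only the groups compared the count was 3 against Rnaseh2bΔIEC (8.82% against 19.2% of all genes tested) and 8 against Atg16l1ΔIEC (23.5% against 16.1%). Beyond these settings the cause of the shifts was not tested.

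The sterol median minus the fatty acid median moved by more than the SD between libraries with lane (0.08388 in Rnaseh2bΔIEC and 0.09729 in Atg16l1/Rnaseh2bΔIEC organoids), with lane and sex (0.08703 in Rnaseh2bΔIEC) and within lane 1 (0.09729). Leaving out each library gave counts of 1 to 10 (Rnaseh2bΔIEC), 7 to 13 (Atg16l1ΔIEC) and 4 to 8 (Atg16l1/Rnaseh2bΔIEC) against WT, 0 to 9 against Rnaseh2bΔIEC, 8 to 15 against Atg16l1ΔIEC and 6 to 15 for the interaction. Those counts were 8 or 9 against Atg16l1ΔIEC without Atg16l1ΔIEC library 1 or 4 or Atg16l1/Rnaseh2bΔIEC library 1, 3 or 4, and 6 for the interaction without Rnaseh2bΔIEC library 2. The branch difference then ran from 0.102 to 0.1983, 0.1109 to 0.1511, 0.0341 to 0.08248, -0.04804 to 0.00014, -0.1082 to -0.02829 and -0.2421 to -0.1811, in the same order, with -0.02829 without Atg16l1/Rnaseh2bΔIEC library 1.

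Same-numbered libraries of different genotypes did not deviate together (r from -0.502 to 0.442, over 0.1 in 7 of 18), so the replicate number does not pair them. With it as a replicate block the counts were 7, 12, 8, 4, 14 and 10 in the order above. No call for a gene past the threshold turned its direction under any alternative. The fits by library pair gave the same differences as the fit without pairs, so no direction could turn there. Such calls missed the threshold in 379 of their repeats and kept it in 1176, a total that mixes unlike settings. Both pseudocounts and the filter at 50 kept all 57 calls. Of the 57, 52 were lost with the library pair as a random block, 57 with pairs averaged and 41 with lane as a covariate.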

Other observations

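By Xist, libraries 1 and 2 of WT and Atg16l1/Rnaseh2bΔIEC organoids and 3 and 4 of Atg16l1ΔIEC organoids came from males, and the other pairs of these genotypes from females, while both Rnaseh2bΔIEC libraries were male. For Scd1 and Stard4, every male library lay above every female library in each of the 3 genotypes with both. The log2 differences were 0.27, 0.19 and 0.27 for Scd1 and 0.04, 0.03 and 0.07 for Stard4 (WT, Atg16l1ΔIEC and Atg16l1/Rnaseh2bΔIEC organoids). For Srebf2, every female library lay above every male library in all 3. These are 2 and 1 of the 34 genes, and the same separation without overlap occurred in 4.54% and 3.62% of all genes tested. Each pair may stand for 1 animal, so sex and pair cannot be told apart. With sex as a covariate, the difference of Scd1 between Rnaseh2bΔIEC and WT organoids was 0.29 (limma adjusted p = 0.0103). That fit held no pair block, and the call of Scd1 was lost with the block. With lane as a covariate, alone or with sex, 0 fatty acid enzymes were higher in this comparison in limma, so Scd1 was not called.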
